A study of Mus musculus with 12 samples.

Results

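The genes that make up the core of the pre-mRNA splicing machinery were followed in LSK cells, the lineage-negative, Sca-1-positive, KIT-positive fraction of bone marrow that holds the hematopoietic stem cells and early progenitors of the mouse. Members were taken by gene name, with no measured value in the rule: the Srsf genes (SR proteins), the Sf3a and Sf3b genes, the Snrp genes, U2af1 and U2af2, the Hnrnp genes and the Prpf genes. The rule found 68 of the 35999 genes in the table, with 11 in the SR family, 9 in the SF3 family, 13 in the Snrp family, 2 in the U2AF family, 20 in the hnRNP family and 13 in the PRPF family. There were 12 libraries, 1 per mouse, of which 6 were labelled WT and 6 Fancg KO (Fancg-/-), with replicate numbers 2 to 7 in both. FANCG is a subunit of the Fanconi anemia core complex, which acts in the repair of DNA interstrand crosslinks. The mice were untreated as far as the labels say, and their strain, age and sex are not given in the sources used here.

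Introns are removed by the spliceosome, which is built anew on each pre-mRNA from small nuclear ribonucleoproteins. Each of these particles carries a small nuclear RNA inside a ring of Sm proteins, and U2AF and the SF3 complexes bring the U2 particle to the branch site near the 3′ end of the intron. The PRPF proteins act mostly in the tri-snRNP and the Prp19 complex, around which the catalytic core forms. SR proteins bind exonic enhancers and mostly favour the use of nearby splice sites, while hnRNP proteins coat nascent RNA and often act against them. Point mutations in SF3B1, SRSF2 and U2AF1 are known from myelodysplastic syndromes and acute myeloid leukemia, diseases to which Fanconi anemia predisposes. Zmat3, the gene on which the study centres, encodes an RNA-binding protein that is itself known to regulate splicing.

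The values are a normalized signal per gene and library, and a change is given as the log2 fold change of Fancg KO minus WT on the log2(signal + 1) scale, which understates changes of low genes. Means are given ± SD over the 6 libraries of a genotype. Bulk RNA does not tell fewer cells of a type from less RNA per cell. No member passed the test for a difference between the genotypes. Of the 65 members whose signal averaged 10 or more across all 12 libraries, 0 reached an adjusted p under 0.05 in limma with Benjamini-Hochberg adjustment, as did 0 of all 8887 genes tested (0%). An unadjusted p under 0.05 was found for 0 of the 65 members and for 326 of all genes tested (3.67%), and the member with the smallest unadjusted p stood at rank 502. The log2 fold change was above 0 for 29 members and below 0 for 36, against 50.7% above 0 over all genes tested. This balance was not stable. After scaling to equal totals without the 15 highest genes, 36 members were above 0, against 57.6% of all genes. Without WT 6 there were 37 (52.9% of all genes), without Fancg KO 3 there were 38 (53.8%) and without Fancg KO 6 there were 24 (51.4%). In the main fit the members had a median of -0.02, against 0.00 over all genes, with a range from -0.42 to 0.39. Changes past 0.5 on the log2 scale, up or down, were found for 0 members and for 7.08% of all genes. The 6 WT and 6 Fancg KO libraries overlapped in every member tested, and 0.09% of all genes tested had groups that did not overlap.

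The 95% intervals show which sizes of change the data still allow. The interval lay between -1 and 1 for 64 of the 65 members, and Sf3b6 was the exception with -1.01 to 0.16. It lay between -0.5 and 0.5 for 37 of 65 (56.9%), against 21.6% of all genes tested. The members also stood at higher levels, with a median of 126 for their mean signals against 33.4 for all genes tested. Among genes that averaged 50 or more, the interval lay within 0.5 for 34 of 49 members (69.4%) and for 44.5% of all such genes. These 49 members still stood higher, with a median of 191 for their mean signals against 94.8, so the levels are not matched. For the other 28 of the 65 members a change of 0.5 was inside the interval.

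**Figure D1:**
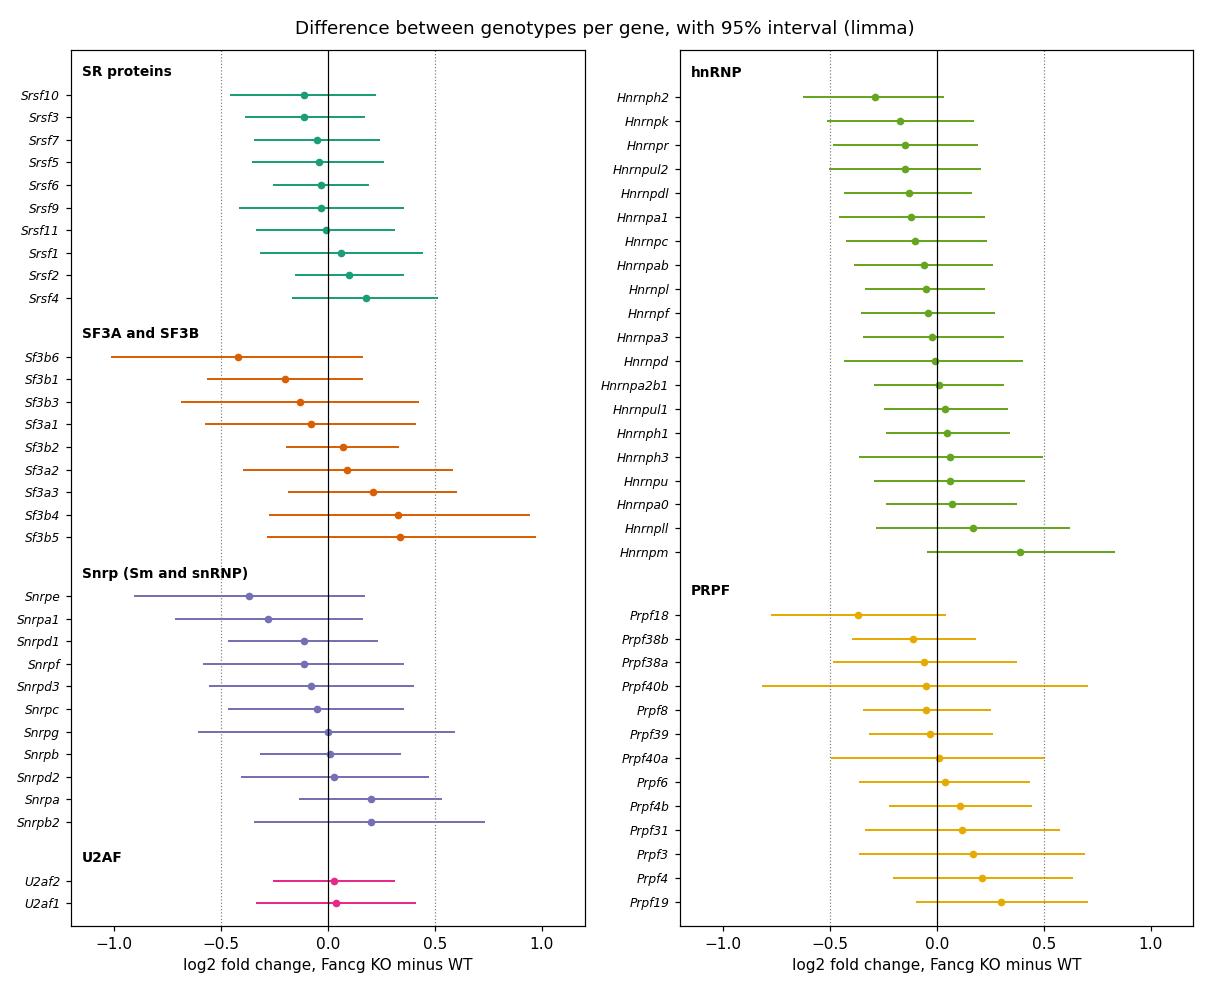
Log2 fold change of Fancg KO minus WT (x axis, on the log2(signal + 1) scale) for each of the 65 members tested (y axis), with its 95% interval from limma as a line and dotted lines at -0.5 and 0.5. Every interval crosses 0, from Sf3b6 at -0.42 to Hnrnpm at 0.39, and the SR and U2AF genes have shorter intervals than most SF3 and Snrp genes.

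The Snrp genes encode the ring and the specific proteins of the small nuclear ribonucleoproteins. Snrpe, which encodes SmE, a protein of the Sm ring, had the lowest log2 fold change of the family. It was at 42.6, 40.1, 48.1, 55.4, 60.8 and 54.7 in WT 2 to WT 7 and at 21.2, 30.2, 70.9, 54.5, 44.8 and 28.5 in Fancg KO 2 to KO 7. Fancg KO 2, 3 and 7 lay below every WT library and Fancg KO 4 above every one, so the KO libraries spread more widely. Its log2 fold change was -0.37 ± 0.25 (SE), with an unadjusted p of 0.167 in limma. Of the 31-base stretches of Snrpe 13.8% are shared with other annotated genes. Snrpert, annotated by GENCODE as a processed pseudogene, was at 2.10 in WT 2, at 2.03 in WT 6 and at 0 in the other 10 libraries, with a mean of 0.345, and was too low to test.

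Sm ring genes had the highest levels of the family. Per kilobase of transcript, which allows genes to be compared, Snrpb (SmB) stood highest at a mean signal of 161, followed by Snrpf (SmF) at 109 and Snrpe at 91.4. Snrpb was above Snrpf in 10 of the 12 libraries and Snrpf above Snrpe in 8 of 12, so the last step is within the spread of the libraries. The signal of Snrpb was 185 ± 26.2 in WT and 188 ± 37.1 in Fancg KO (log2 fold change 0.01). Snrpf was at 97.6 ± 23.6 and 90.9 ± 25.6 (-0.11), but 92.1% of its 31-base stretches also lie in other annotated genes, so its level is uncertain. The neighbouring Ccdc38, which holds 61.7% of them, had a mean signal of 0.126. Snrpa, which encodes the A protein of the U1 particle, had the highest log2 fold change of the family together with Snrpb2, at 0.20 ± 0.16 (47.2 ± 4.99 in WT, 55.1 ± 10.5 in KO, unadjusted p 0.211 in limma). Over the 11 members tested, 4 had a log2 fold change above 0 and 7 did not, with a median of -0.05, and 0 had an unadjusted p under 0.05.

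Snrpn, which encodes SmN, a close relative of SmB known from brain, was listed at 0 in all 12 libraries, and no fold is given for it. Of its 31-base stretches 34.5% are shared with other annotated genes, and 23.7% with Gm38393, which had a mean signal of 0.989. The part of this sharing in the value of Snrpn was not tested.

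Both U2AF genes stood at like levels, and their genotype means were close. The 2 proteins form a dimer, in which U2AF65 (U2af2) binds the polypyrimidine tract and U2AF35 (U2af1) the AG at the end of the intron. Per kilobase, U2af2 stood at 60.5 and U2af1 at 55.0, and U2af2 was the higher in 7 of 12 libraries, so their order is within the spread. U2af2 was at 126, 148, 120, 109, 142 and 106 in the WT libraries and at 120, 105, 123, 135, 149 and 134 in the Fancg KO libraries (log2 fold change 0.03, 95% interval -0.25 to 0.31). U2af1 was at 68.8, 54.3, 39.8, 69.6, 54.4 and 54.0 in WT and at 70.8, 58.2, 40.4, 65.7, 60.0 and 54.6 in KO (0.04, -0.33 to 0.41). The genotypes overlapped almost fully in both, although 25.8% of the 31-base stretches of U2af1 and 21.4% of those of U2af2 are shared with other annotated genes.

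The SF3 family held the gene with the highest signal of all members, Sf3b3, which encodes a scaffold subunit of the SF3B complex. Sf3b3 was at 2770, 2830, 2640, 3130, 1440 and 1840 in WT 2 to WT 7. In Fancg KO 2 to KO 7 it was at 1990, 3020, 2950, 2650, 1180 and 1780. Replicates 6 and 7 were the lowest 2 in WT and, in the same way, in KO, and the genotypes overlapped over nearly the whole range. The log2 fold change was -0.13 ± 0.26 (SE), with a 95% interval of -0.68 to 0.42. The libraries numbered 6 and 7 were also the shallowest, at about 1235110 to 1484209 reads against 2021706 to 2471413 in the others, and the part of depth in the Sf3b3 values was not tested.

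Sf3b3 stood far from the subunits it is assembled with. Per kilobase it was at 520, against 59.2 for Sf3b1 and 6.77 to 25.2 for the other 7 members of the family, and it was above Sf3b1 in 12 of 12 libraries. Sf3b3 lies at GRCm38 chr8:110810239-110846787 on the minus strand, and in GENCODE vM21 it is the only member with small nucleolar RNA (snoRNA) genes within or across an annotated exon. These are short, abundant noncoding RNAs that guide the modification of other RNAs. Gm22193, of 76 bases, lies whole inside a retained-intron transcript of Sf3b3 (chr8:110842383-110842458), and Snord111, of 89 bases, overlaps another by 69 bases (chr8:110838528-110838616), both on the strand of Sf3b3. Their sequences are shown because they lie in the annotated exons of the member with the highest signal. They are written 5′ to 3′ on the minus strand, with the letters TGATGA near the start and CTGA near the end in capitals, which match the C and D boxes of this class of snoRNA.
Gm22193: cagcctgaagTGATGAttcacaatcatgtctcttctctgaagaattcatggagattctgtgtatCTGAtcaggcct
Snord111: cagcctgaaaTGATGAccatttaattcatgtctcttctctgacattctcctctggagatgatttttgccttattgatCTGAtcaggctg
The table names 0 snoRNA or scaRNA genes, so a read from either would have Sf3b3 as its place to be counted if the annotation behind the table holds these transcripts. How much of the Sf3b3 signal comes from them was not tested, and its level as an mRNA is therefore uncertain. Outside the name rule, Ddx23 was also high, at 6140 ± 3950 in WT and 5220 ± 2430 in Fancg KO. Zrsr1 was at 1540 ± 1170 and 1410 ± 1150. The exons of Ddx23 and Zrsr1 were not searched for snoRNA genes.

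Sf3b1, which encodes the subunit that holds the branch site and is the one recurrently mutated in myelodysplastic syndromes, was at 394 ± 86.6 in WT and 339 ± 51.6 in Fancg KO. Its 6 WT libraries were at 407, 252, 402, 396, 524 and 381 and its 6 KO libraries at 330, 328, 255, 336, 402 and 385. All 6 KO values thus lay between the lowest and the highest WT value, and the log2 fold change of -0.20 ± 0.17 had an unadjusted p of 0.259 in limma. The members with the lowest and the highest log2 fold change of the family were both small subunits of SF3B. Sf3b6, whose product touches the branch-site adenosine, was at 20.2, 22.3, 33.9, 36.6, 53.3 and 38.1 in WT and at 15.5, 18.1, 34.8, 23.5, 40.6 and 19.6 in KO (-0.42 ± 0.27, unadjusted p 0.144). Sf3b5 was at 21.9 ± 5.50 in WT and 30.0 ± 12.4 in KO (0.34 ± 0.30, unadjusted p 0.262). At signals of this size the libraries of 1 genotype differed by up to 3.50 times. Of the 9 members 5 were above 0 and 4 below, with a median of 0.07.

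The PRPF genes held the member with the smallest p of all. Prpf18, which encodes a factor of the second step of splicing, was at 29.3, 22.9, 18.5, 17.1, 22.8 and 23.4 in WT 2 to WT 7 and at 13.4, 17.8, 15.6, 20.3, 15.2 and 20.0 in Fancg KO 2 to KO 7. Fancg KO 2, 4 and 6 lay below every WT library and the other 3 KO libraries lay among them. The means were 22.3 ± 4.29 and 17.1 ± 2.78, with a log2 fold change of -0.37 ± 0.19 (SE, 95% interval -0.77 to 0.04). The unadjusted p was 0.0737 in limma with an adjusted p of 1.0 over all genes, and 0.0281 in an exact two-sided permutation test of the log2 values, the only such p under 0.05 among the 65 members, against 340 of all 8887 genes tested (3.83%).

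At the other end of the family stood Prpf19, the ubiquitin ligase after which the Prp19 complex is named. It was at 42.0, 42.3, 35.4, 47.8, 66.9 and 38.8 in WT and at 64.9, 42.5, 54.7, 64.3, 70.0 and 42.0 in KO (log2 fold change 0.30 ± 0.19, unadjusted p 0.124). Fancg KO 6 alone lay above every WT library. The highest levels per kilobase were those of Prpf38b at 91.8, Prpf8 at 61.9 and Prpf38a at 42.0, and this order held in 12 of 12 libraries for each step. Prpf8, the large protein at the catalytic centre, was at 467 ± 55.3 in WT and 454 ± 68.3 in KO (-0.05, 95% interval -0.34 to 0.25). None of its 31-base stretches is shared with another gene. Prpf38b was at 288 ± 33.4 and 268 ± 36.5 (-0.11), and Prpf38a at 64.5 ± 12.7 and 62.9 ± 20.0 (-0.06). Of the 13 members 7 were above 0 and 6 below, with a median of 0.01.

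**Figure D2:**
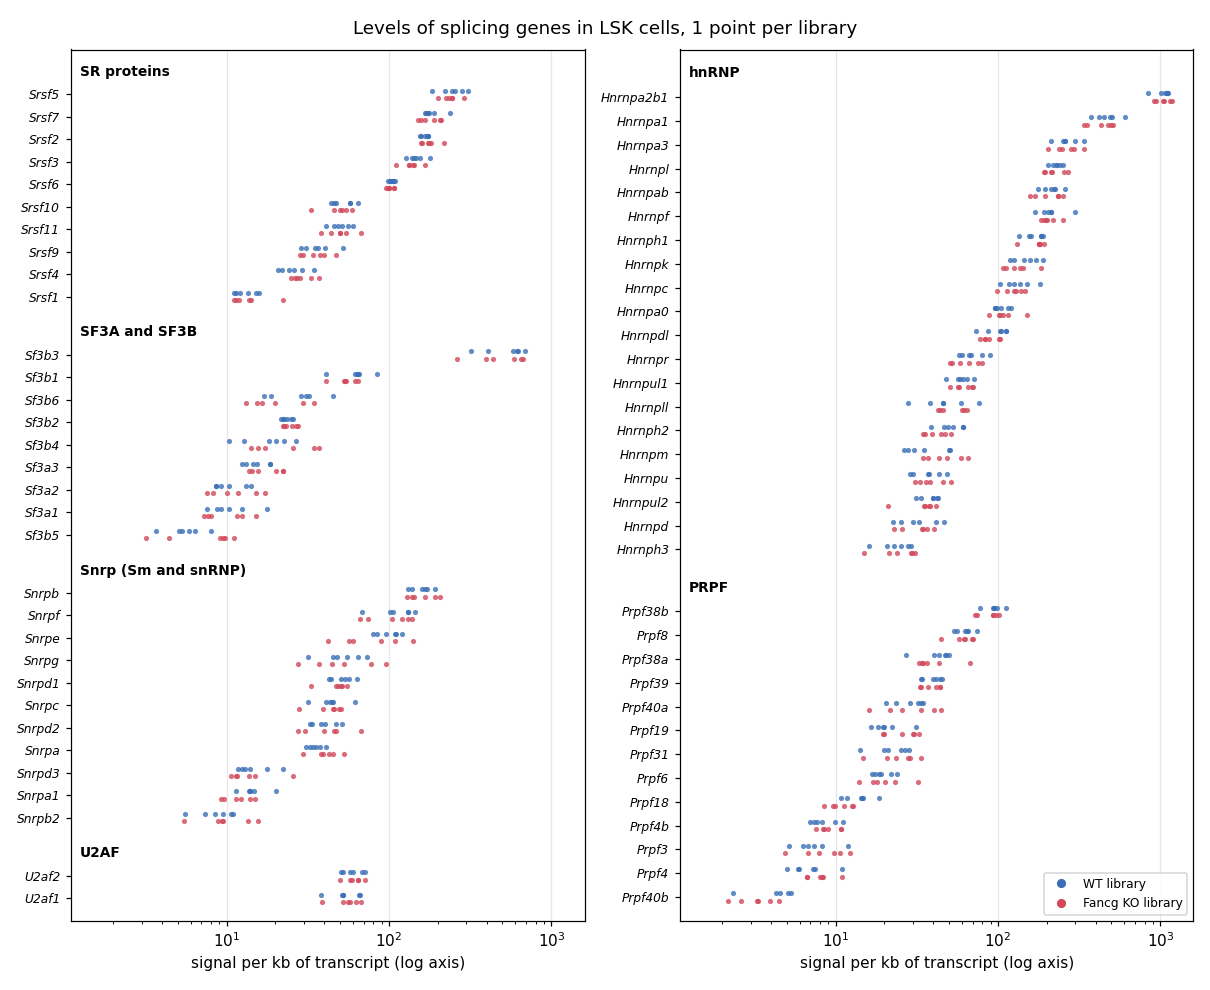
Signal per kilobase of transcript (x axis, log axis) of the 65 members tested (y axis, by family and level), with 1 point per library, 6 WT in blue and 6 Fancg KO in red. The points of both genotypes overlap for every gene, Hnrnpa2b1 stands highest at a mean of 1040, and Sf3b3 at 520 lies apart from the rest of its family.

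The SR proteins varied least among the larger families, with a median residual SD on the log2 scale of 0.23, against 0.25 for the hnRNP, 0.32 for the PRPF, 0.37 for the Snrp and 0.43 for the SF3 genes. The last 3 of these families also had lower levels, with a median mean signal of 40.7 to 63.7 against 259 for the SR genes. The 10 tested SR members had log2 fold changes from -0.11 to 0.18 with a median of -0.03, 3 above 0 and 7 below. The 95% interval lay within 0.5 for 9 of the 10. Summed over the family, the signal was 2390 ± 125 in WT and 2350 ± 212 in Fancg KO. The highest levels per kilobase were those of Srsf5 at 244, Srsf7 at 183 and Srsf2 at 172. Srsf5 was above Srsf7 in 11 of 12 libraries and Srsf7 above Srsf2 in 8 of 12.

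Srsf2, the SR protein mutated in myeloid neoplasms, was at 328, 298, 294, 324, 330 and 318 in WT and at 304, 301, 417, 337, 345 and 332 in KO. Fancg KO 4, 5, 6 and 7 lay above every WT library, KO 5 to 7 by little, and KO 2 and 3 lay within the WT range (log2 fold change 0.10 ± 0.12, unadjusted p 0.420). Srsf5 was at 371 ± 64.0 and 358 ± 43.4 (-0.04) and Srsf7 at 425 ± 60.3 and 412 ± 57.3 (-0.05). Srsf10, beside Srsf3, had the lowest log2 fold change of the family (198 ± 30.8 and 184 ± 33.5, -0.11). The highest was that of Srsf4 (58.9 ± 11.3 and 66.5 ± 10.3, 0.18 ± 0.16), of which 41.0% of the 31-base stretches are shared with the annotated gene Gm12992. Srsf12 was near absent, with a mean signal of 0.456 and at most 2.36 in any library, and was not tested.

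Srsf6, singled out after its values were seen, varied least. It was at 384, 371, 356, 371, 363 and 346 in WT 2 to WT 7 and at 377, 353, 378, 352, 339 and 350 in Fancg KO 2 to KO 7. The highest library was 1.14 times the lowest, and the residual SD of 0.06 on the log2 scale was the lowest of all 8887 genes tested. The log2 fold change was -0.03 with a 95% interval of -0.25 to 0.19. For this interval limma drew the variance toward a trend over all genes, so it does not rest on the SD of 0.06 alone. None of the 31-base stretches of Srsf6 is shared with another annotated gene. At the other end, the highest library was more than 3 times the lowest for 6 members, and the ratio was largest for Prpf40b, at 3.31 to 17.5 over the 12 libraries with a mean of 11.7.

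**Figure D3:**
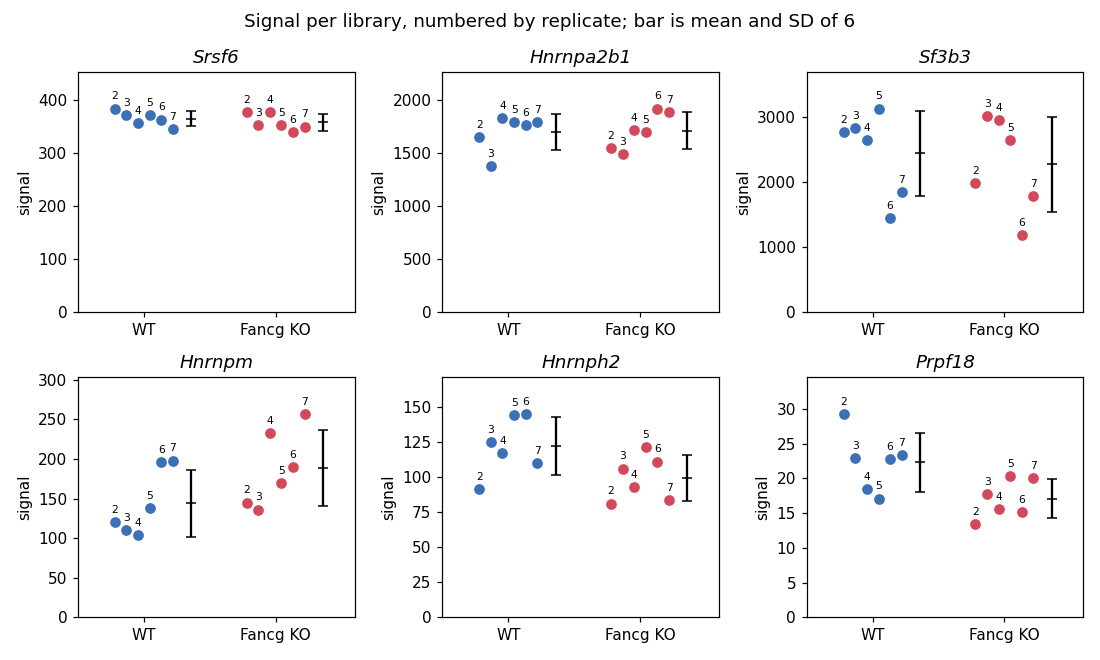
Signal (y axis, from 0) in each of the 6 WT (blue) and 6 Fancg KO (red) libraries, labelled by replicate number, for 6 members, with the mean and SD beside each group. Srsf6 is nearly level at 339 to 384, Sf3b3 is lowest in replicates 6 and 7 of both genotypes, and the genotypes overlap in each of the 6 genes.

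The hnRNP family held the member with the highest level per kilobase. Hnrnpa2b1, an abundant A/B-type hnRNP that packages nascent transcripts, stood at 1040 per kilobase, Hnrnpa1 at 455 and Hnrnpa3 at 268. This order held in 12 of 12 libraries for each step. Hnrnpa2b1 was at 1650, 1380, 1830, 1790, 1760 and 1790 in WT and at 1550, 1490, 1720, 1700, 1920 and 1890 in Fancg KO (log2 fold change 0.01, 95% interval -0.29 to 0.31). Replicate 3 was the lowest library in both genotypes, and the means differed by less than their SDs of 169 and 173. Hnrnpa1 was at 907 ± 153 and 837 ± 142 (-0.12) and Hnrnpa3 at 445 ± 71.9 and 442 ± 80.1 (-0.02). Of the 31-base stretches of Hnrnpa1 29.9% and of Hnrnpa3 28.1% are shared with other annotated genes.

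Hnrnpm and Hnrnph2 had the highest and the lowest log2 fold change of the family. Hnrnpm, a protein that binds GU-rich sequence, was at 120, 110, 104, 138, 196 and 198 in WT and at 145, 136, 233, 170, 190 and 257 in KO. Fancg KO 4 and 7 lay above every WT library, and the other 4 lay within the WT range. Its means were 144 ± 42.5 and 189 ± 48.0 (log2 fold change 0.39 ± 0.21, 95% interval -0.04 to 0.83), with an unadjusted p of 0.0738 in limma and 0.110 in the exact permutation test. Of its 31-base stretches, 14.0% are shared with March2.

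Hnrnph2, an X-linked gene of the H/F group that binds runs of G, was at 91.1, 125, 117, 144, 145 and 110 in WT and at 81.1, 106, 92.6, 121, 111 and 83.6 in KO. Fancg KO 2 and 7 lay below every WT library. The means were 122 ± 20.8 and 99.2 ± 16.1 (log2 fold change -0.29 ± 0.15, 95% interval -0.62 to 0.03), with an unadjusted p of 0.0744 in limma and 0.0628 in the exact permutation test. The other members of the H/F group, given here as its relatives, were closer to 0, with Hnrnph1 at 372 ± 48.2 and 387 ± 47.7 (0.05), Hnrnph3 at 52.3 ± 10.8 and 55.1 ± 13.5 (0.06) and Hnrnpf at 490 ± 99.8 and 472 ± 55.1 (-0.04). Over all 20 members, 8 were above 0 and 12 below, with a median of -0.03 and 0 with an unadjusted p under 0.05.

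Many members were high or low in the same libraries. WT 6 was the highest library for 18 of the 65 members and Fancg KO 6 for 11, together 44.6% of members against 21.7% of all genes tested. Fancg KO 3 was the lowest library for 19 members and Fancg KO 2 for 15, together 52.3% against 21.0% of all genes. In Fancg KO 6, 54 of 65 members (83.1%) were above their mean over the 12 libraries, and in Fancg KO 3 only 11 (16.9%), against 51.7% and 42.4% of all genes tested. Sf3b3 ran the other way as 1 of 3 members with the lowest value in Fancg KO 6, and Prpf40b was the 1 member lowest in WT 6. For the median deviation of the members, each library was compared with the mean of its own genotype. On the log2 scale this median was -0.27 in Fancg KO 3, 0.17 in Fancg KO 6 and 0.19 in WT 6. The KO libraries alone thus spanned nearly the whole range. The 65 members are not independent of each other, and these shares describe the libraries.

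The share of the signal taken by Lars2, the gene with the most signal in the table, was higher in the pair numbered 6 than in the other pair of KO libraries. It was 36.2% in WT 6, 35.1% in Fancg KO 6, 18.3% in Fancg KO 3 and 17.0% in Fancg KO 2. Approximate depth was 1441166 reads in WT 6 and 1389871 in Fancg KO 6, against 2161696 in Fancg KO 3 and 2083124 in Fancg KO 2. WT 3 had the lowest Lars2 share of the series, 15.6%, and about 2165009 reads, with a median deviation of the members of -0.14. In WT 4, WT 5, Fancg KO 4 and Fancg KO 5 the share was 32.3%, 29.0%, 24.7% and 30.5%. Their median deviations were 0.03, 0.02, 0.05 and 0.06. WT 2 had a Lars2 share of 19.0% and about 2220114 reads, with a median deviation of the members of 0.01. WT 7 and Fancg KO 7 were as shallow as the pair numbered 6, at about 1484209 and 1235110 reads, with median deviations of -0.03 and 0.12. The part of depth or of Lars2 in the members' values was not tested.

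**Figure D4:**
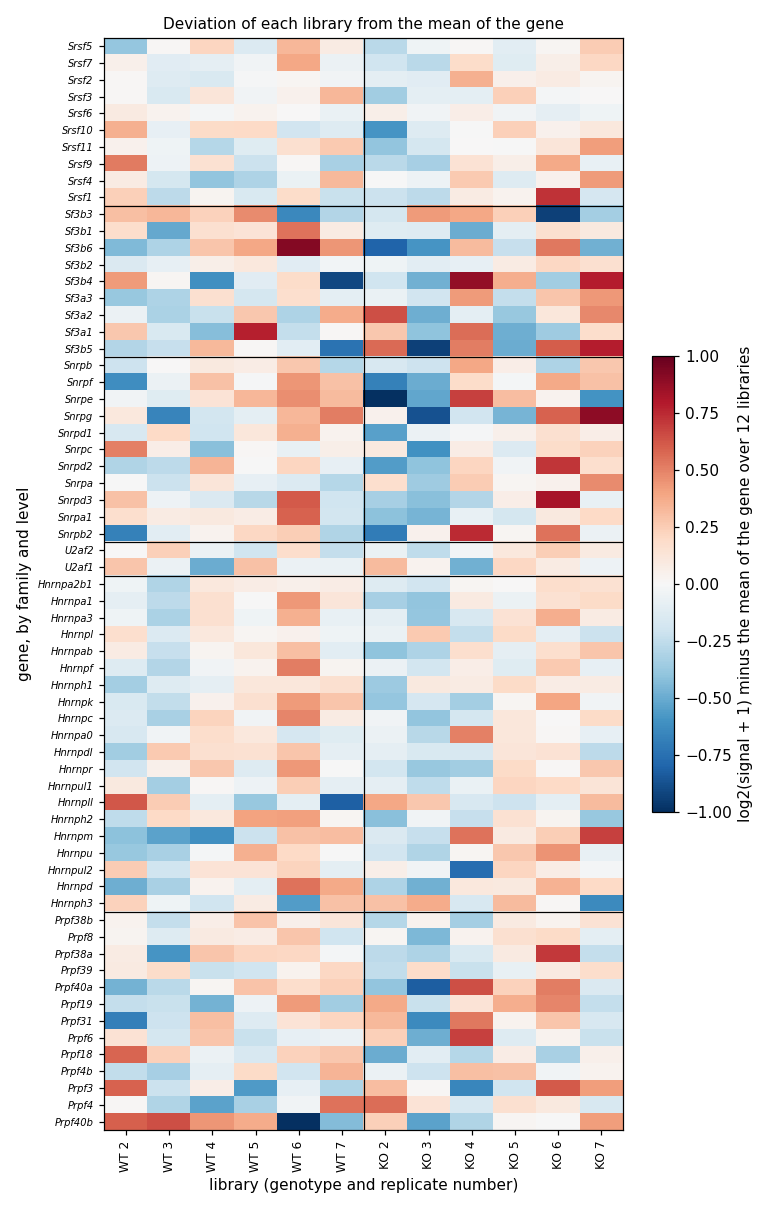
Deviation of each library (x axis, 6 WT then 6 Fancg KO) from the mean of the gene over the 12 libraries, in log2(signal + 1) units by colour, for the 65 members (y axis, by family and level), with colours ending at -1 and 1. WT 6 and KO 6 are mostly red and KO 2 and KO 3 mostly blue, and red and blue cells occur in both genotypes for every family.

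Another 147 genes of the splicing pathway outside the name rule were listed by role, of which 127 were tested, 18 were too low and 2 are not named in the table. Of the 127, 71 had a log2 fold change above 0 and 56 did not, with a median of 0.02, and 2 had an unadjusted p under 0.05, against 3.67% of all genes tested. The snRNP-specific and LSm proteins had 13 of 23 above 0 (median 0.01) and the helicases and Prp19-complex proteins 12 of 26 (-0.03). The SR-related proteins and SR protein kinases had 13 of 24 above 0 (0.07), the other splicing regulators 22 of 36 (0.02), the minor spliceosome 2 of 6 (-0.09) and the exon junction complex 9 of 12 (0.07). None of the 127 had an adjusted p under 0.05. Changes past 0.5 on the log2 scale, up or down, were found for 5 of them, against 7.08% of all genes. The lowest was that of Ppih, at -0.68 ± 0.42 (SE, unadjusted p 0.121 in limma).

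The 2 genes with an unadjusted p under 0.05 were both low, and with WT means under 10 they came to be tested through their KO values. Lsm5, a subunit of the LSm ring of the U6 particle, was at 9.59 ± 6.32 in WT (4.32 to 21.4) and 15.4 ± 2.66 in Fancg KO (13.0 to 20.2), with a log2 fold change of 0.79 ± 0.32 and an unadjusted p of 0.0258 in limma. Zmat3, which the study itself picked on these libraries, so that its place in the list is no independent evidence, was at 9.69 ± 2.37 (6.92 to 13.0) and 20.2 ± 5.26 (14.9 to 30.2). Its log2 fold change was 0.99 ± 0.23, with an unadjusted p of 0.00071 and an adjusted p of 1.0, and its 6 KO libraries lay above its 6 WT libraries. Beside it, the member log2 fold changes stayed between -0.42 and 0.39.

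**Figure D5:**
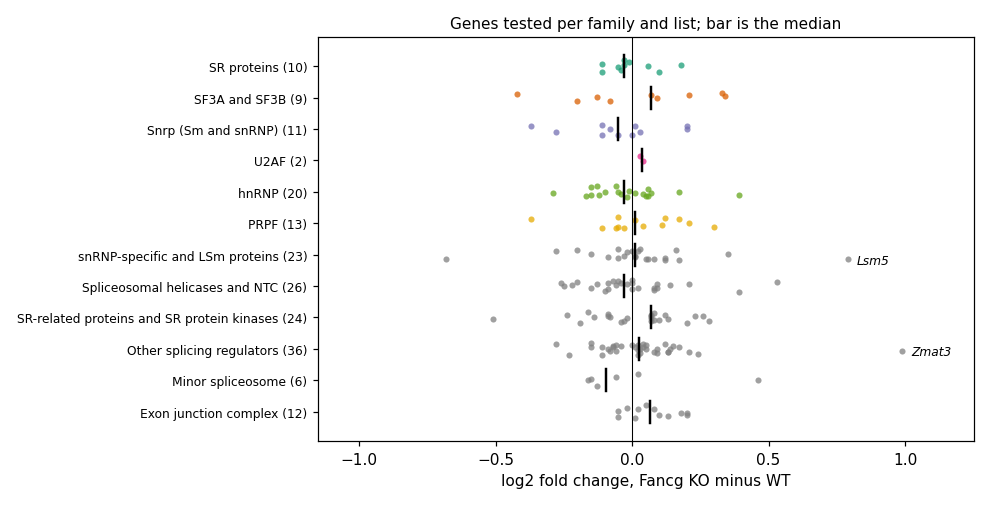
Log2 fold change of Fancg KO minus WT (x axis) of each gene tested, by member family (coloured) and by list of other splicing genes (grey), with the number of genes in brackets and the median as a bar. All medians lie between -0.09 and 0.07. Lsm5 at 0.79 and Zmat3 at 0.99 lie furthest up, and Ppih at -0.68 lies furthest down.

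Across the series, the total signal was 1576081 to 2672915 per library, 14206 to 16460 genes had a signal above 0, and Lars2 alone took 15.6% to 36.2% of it. The members together took 0.573% to 0.994%. Fancg itself was at 10.3 ± 6.96 in the libraries labelled WT and 8.53 ± 4.18 in those labelled Fancg KO (exact permutation p 0.636), so its level does not check the labels. All 9 LSK markers had a mean signal of at least 10, although Ly6a, which encodes Sca-1, was low at 10.8. The summed erythroid markers were at 6.77 to 27.7 in WT and 5.59 to 27.6 in KO. The lists for mature myeloid, B, T and NK cells and megakaryocytes each had 1 gene above a mean of 10, and Trac, which defines most T cells, was listed at 0. The stroma and endothelium list was high through Pecam1 alone. Y-linked transcripts were low in WT 3 and Fancg KO 7, at 26.6 and 49.7 against 189 to 435 in the others.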

How the data were processed

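RNA of sorted LSK cells from 6 WT and 6 Fancg KO mice was made into CATS RNA-seq libraries after mRNA enrichment. The authors deposited a table of normalized signal per gene, whose name and values point to estimated counts scaled by 1 factor for each library; the submitters' processing notes name kallisto, and its version, the mouse genome build and the annotation are not given in the sources used here. Columns were matched to libraries by title, with 0 columns unused.

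Genes averaging 10 or more in signal (8887 of 35999) were tested on log2(signal + 1) with limma 3.58.1 in R 4.3.3 (empirical Bayes with trend, two-sided, no covariate, Benjamini-Hochberg adjustment over all of them), after a run on simulated data with known changes. Each member tested was also given an exact permutation test of the log2 values. A p-value rests on the spread between these libraries, 1 per mouse. For limma p-values and intervals the variance of each gene was first drawn toward a trend over all genes tested. Depth was approximated as the total signal divided by the commonest value in a library, taken as 1 read. The precision is that of the 95% intervals.

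Positions, transcript lengths, snoRNA genes and sequences came from GENCODE vM21 (GRCm38), in which 35929 gene names of the table were found. Length was that of a principal protein-coding transcript, and shared 31-base stretches were counted over all annotated transcripts, since kallisto assigns reads by such matches.

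The members and lists were chosen with earlier results of these data known. Named in full were, for each family, the 3 members with the highest signal per kilobase and those with the largest change in each direction, any member with an unadjusted p under 0.05 with or without the replicate number as a block, and any with groups that did not overlap. Alternatives were other pseudocounts (0.5 and 5), filters (none, 5 and 50), 3 rescalings, no trend, the replicate number as a block, leaving out each library and leaving out both libraries low in Y-linked transcripts.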

Additional observations from a re-analysis of the deposited data

Results flagged for a closer look

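In 9 of 132 groups of 6 libraries (66 genes in 2 genotypes) a single library lay far from the other 5 by Dixon's test at its 95% value, and chance alone gives about 1 in 20, or 6.6. Of the 9, 3 were in Fancg KO 6. Its Srsf1 was at 119 against 59.5 to 75.7 in the other KO libraries, its Snrpd3 at 78.2 against 32.4 to 45.7 and its Prpf38a at 102 against 49.8 to 66.0. In WT 6, Hnrnpf was at 678 against 387 to 487 and Srsf7 at 543 against 383 to 431. In Fancg KO 2, Hnrnph1 was at 293 against 397 to 430 and Snrpd1 at 28.6 against 40.4 to 47.2. Hnrnpul2 was at 108 in Fancg KO 4 against 180 to 214. Fancg was at 24.1 in WT 7 against 4.76 to 9.40 in the other WT libraries.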

How the results depend on the processing

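The count of members with an adjusted p under 0.05 was 0 under every alternative run. Members with an unadjusted p under 0.05 numbered 1 under quantile normalization and 1 without the trend (Prpf18 in both), 1 when WT 3 and Fancg KO 7, low in Y-linked transcripts, were both left out (Sf3b1), and 0 to 2 with 1 library left out. Those that passed with 1 library left out were Hnrnpm, Hnrnph2, Prpf18, Prpf19, Sf3b1, Sf3b5 and Snrpe, without WT 2, 3, 5, 6 or 7 or Fancg KO 2, 3, 4 or 5. For the other splicing genes that count was 0 at a mean signal of at least 50, where Lsm5 and Zmat3 are not tested, and 1 to 4 with 1 library left out, and Lsm5 missed it without WT 2, 3 or 7 or Fancg KO 4 (p 0.0512 to 0.0639 in limma) and without both WT 3 and Fancg KO 7 (0.0774). Directions turned for members near 0: Hnrnpa3 was at 0.023 with equal totals and 0.031 under quantile normalization, Snrpb at -0.005 under quantile normalization and -0.037 without WT 3 and Fancg KO 7, and Hnrnpa2b1 at -0.076 in that last setting. With 1 library left out, log2 fold changes ranged from -0.047 to 0.051 for Hnrnpa2b1, -0.09 to 0.061 for Hnrnpa3, -0.203 to 0.001 for Prpf38a, -0.091 to 0.039 for Prpf8, -0.272 to 0.043 for Sf3b3, -0.06 to 0.078 for Snrpb, -0.249 to 0.011 for Snrpf, -0.122 to 0.022 for Srsf5, -0.093 to 0.025 for Srsf7, -0.058 to 0.138 for U2af1, -0.016 to 0.085 for U2af2 and -0.361 to 0.067 for Fancg. The other 14 of the 25 named members kept their direction with any 1 library left out. The members above 0 numbered 24 to 38 of 65 with 1 library left out, against 48.7% to 53.8% of all genes. They numbered 23 without WT 3 and Fancg KO 7 (47.5% of all genes). With equal totals without the 15 highest genes they numbered 36 (57.6%). The median of the members ran from -0.051 to 0.039 with 1 left out. Each family median took both signs over the alternatives, for example -0.12 to 0.058 for the Snrp genes with 1 library left out, and the SF3 median of 0.07 was -0.105 at a mean signal of at least 50. The cause of these turns was not tested. Equal totals without the 15 highest genes moved the median of all genes to 0.04, and no scaling moved it further.

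With the replicate number as a block (replicate block), 3 members had an unadjusted p under 0.05, Hnrnph2 at 0.0231, Hnrnpm at 0.0238 and Sf3b6 at 0.0379, and 4 other splicing genes did, against 476 of all 8887 genes tested, with 0 adjusted p under 0.05 in limma. The labels do not say what the number marks. Same-numbered libraries correlated at 0.0862 to 0.362 in their deviations from the group means, 2 of the 6 under 0.1. The mean was 0.196 over same-numbered pairs, against -0.039 over pairs of different numbers. Of the 12 libraries, 9 correlated best with their own number.

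Depth limits the low members: the approximate reads behind Prpf18 were 12.4 to 25.3 per library, against 218 to 548 for Srsf6.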
